A study of Mus musculus with 2 samples.

Results

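Vwf and 7 further genes of endothelial hemostasis (F8, Thbd, Procr, Tfpi, Plat, F3 and Lrg1) were described across the cells of PyMT-M and PyMT-N mouse mammary tumors, as 8 of 33696 genes in the count tables. The 8 genes were chosen by their levels in these same libraries, by cell class and by library, so those levels are a description and no test was made of them. PyMT-M, classed by the study as High-MAC, and PyMT-N, classed as Low-MAC, are sub-lines of the MMTV-PyMT model, in which the polyoma middle T oncogene is expressed from the mouse mammary tumor virus promoter. The cell lines were transplanted into the mammary fat pad of female C57BL/6 mice, and the abbreviation MAC stands for macrophage content. No treatment or time point separated the groups, and both received the same isolation. Dissociated tumors were depleted of CD45+ and Ter119+ cells, enriched with beads for CD31 and CD144, and sorted for CD31+ CD144+ cells. Cells of 3 tumors were pooled for each model into a 10x Genomics 3′ library of UMI (unique molecular identifier) counts. Each condition therefore had 1 library. Transplanted lines and pooled animals limit each group as a model, because the difference between sub-lines, the difference between pools and any batch of library preparation cannot be told apart. With no replicates, no p-values are given, and every interval below is an exact 95% interval that covers counting error only.

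Hemostasis at the vessel wall balances clotting against flow. Endothelial cells store von Willebrand factor in Weibel-Palade bodies and release it to tether platelets and to carry coagulation factor VIII. The same cells display thrombomodulin, the endothelial protein C receptor and tissue factor pathway inhibitor, which restrain thrombin generation, and secrete tissue plasminogen activator, which starts the lysis of fibrin. Tissue factor, the starter of the extrinsic pathway, is normally kept off the luminal surface and is a known product of many tumor cells.

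Cells were assigned to classes by UMIs of marker genes. Blood endothelial cells had at least 5 UMIs of Pecam1, Flt1, Emcn and Kdr together and at most 1 UMI of Krt8, Krt18 and Rhox5. Lymphatic cells had at least 3 UMIs of Prox1, Mmrn1 and Reln. Tumor cells had at least 3 UMIs of Krt8, Krt18 and Rhox5 and none of Pecam1 or Flt1, and fibroblasts had at least 3000 CPM (counts of a gene scaled to a fixed total of UMIs, 1e6) of Col3a1. The 6719 PyMT-M cells kept held 589 blood endothelial, 20 lymphatic, 4890 tumor and 45 fibroblast cells. In PyMT-N, 5607 kept cells held 1069, 207, 3297 and 54 cells of these classes. Cells that met both the blood endothelial and lymphatic rules, 8 in PyMT-M and 174 in PyMT-N, were counted as lymphatic. A further 1175 PyMT-M and 980 PyMT-N cells met no rule, or any other pair of rules, and stood outside the classes. Levels are CPM of the summed UMIs of a class in a library. After the sort for CD31+ CD144+ cells, the tumor class still made up 72.8% of kept PyMT-M and 58.8% of kept PyMT-N cells. The share of a gene's UMIs in a class depends on this mix of cells and on their depth, and not only on levels.

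Blood endothelial cells were shallower in PyMT-M, at a median depth of 5202 UMIs per cell against 12661 in PyMT-N, and the 2 libraries shared 20 cell barcodes. All 10 panendothelial markers were detected in them, with summed levels of 7545 CPM (PyMT-M) and 7061 CPM (PyMT-N). Although CD45+ cells had been depleted, all 7 leukocyte markers were detected, at a summed 37.3 CPM (PyMT-M) and 393 CPM (PyMT-N) in blood endothelial cells. A Ptprc UMI was present in 6 of 589 and 56 of 1069 of these cells. Without them the log2 ratio of Vwf was -1.53 and the other members were likewise within their counting intervals. Of 7 platelet and megakaryocyte markers 4 were detected in each library, with summed levels of 14.2 and 26.0 CPM. Itga2b stood at 13.04 and 10.6 CPM, Pf4 at 0.606 and 15.3 CPM, and Gp9 at 0 and 0.134 CPM. Pericyte and smooth muscle markers, 206 and 125 CPM in sum with Rgs5 at 50.02 and 2.88 CPM, and fibroblast markers, 37.3 and 9.10 CPM in sum, were higher in PyMT-M. The part of these cells in the results was not tested beyond the alternatives that leave cells out. The tumor class was uneven in its markers. Rhox5 stood at 669 (PyMT-M) and 14.6 CPM (PyMT-N), Krt18 at 0.0663 and 1005 CPM, and Epcam at 3.52 and 0.411 CPM, so these cells are called tumor cells by their rule.

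Sequence of the 250 bases upstream of the transcription start was matched in RefSeq (build GRCm38.p6, not the mm39 build of the counts) for 5 of the 8 genes. F3 and Tfpi are shown because both were at least 2-fold higher in PyMT-M tumor cells, and Lrg1 because its UMIs lay mostly in endothelium. Capitals mark GGAA (the core bound by ETS factors, either strand, as GGAA or TTCC) and TGANTCA (the site type bound by AP-1 factors). These letter runs were found by a script and are descriptions, not shown sites of binding.
F3, chr3:121723287-121723536, plus strand: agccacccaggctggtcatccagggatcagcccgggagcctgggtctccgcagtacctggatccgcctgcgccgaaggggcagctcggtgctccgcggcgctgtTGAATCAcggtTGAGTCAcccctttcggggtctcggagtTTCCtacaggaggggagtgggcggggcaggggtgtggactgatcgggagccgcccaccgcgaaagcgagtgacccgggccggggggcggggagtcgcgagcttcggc
Tfpi, first start, chr2:84476760-84477009, minus strand: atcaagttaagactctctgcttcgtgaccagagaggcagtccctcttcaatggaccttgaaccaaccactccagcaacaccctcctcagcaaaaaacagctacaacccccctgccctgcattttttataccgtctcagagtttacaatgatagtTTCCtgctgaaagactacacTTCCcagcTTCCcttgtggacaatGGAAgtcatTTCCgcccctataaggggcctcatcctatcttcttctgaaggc
Tfpi, second start, chr2:84474175-84474424, minus strand: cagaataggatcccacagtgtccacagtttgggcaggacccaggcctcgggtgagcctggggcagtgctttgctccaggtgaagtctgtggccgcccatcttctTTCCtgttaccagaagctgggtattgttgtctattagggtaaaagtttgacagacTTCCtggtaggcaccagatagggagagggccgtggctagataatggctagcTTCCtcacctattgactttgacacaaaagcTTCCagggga
Lrg1, chr17:56121947-56122196, minus strand: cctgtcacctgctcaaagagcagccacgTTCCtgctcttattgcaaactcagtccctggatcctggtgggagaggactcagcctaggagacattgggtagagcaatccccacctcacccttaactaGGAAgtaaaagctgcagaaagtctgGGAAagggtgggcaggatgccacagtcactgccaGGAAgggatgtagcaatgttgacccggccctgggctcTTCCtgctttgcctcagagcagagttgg
The F3 sequence held 2 matches to TGANTCA, at -146 and -135 from the start, and 1 to GGAA. The Tfpi sequences held 5 and 4 matches to GGAA and 0 to TGANTCA. Procr, 1.71-fold higher in PyMT-M tumor cells and not printed, held 1 match to TGANTCA, at -154, and 3 to GGAA. Lrg1 had 5 matches to GGAA and 0 to TGANTCA. F8, lower in PyMT-M tumor cells and not printed, held 4 to GGAA and 0 to TGANTCA. A further letter run, CACCC, was searched and is not marked. It had 3 matches in F3, 2 in Lrg1, 1 in Procr and in each Tfpi sequence, and 0 in F8. Of 32851 promoter sequences of the same length, 93.4% held GGAA, 52.0% held CACCC and 6.75% held TGANTCA, so a GGAA match is the rule among promoters.

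In blood endothelial cells Vwf, Plat and Lrg1 were lower, and Thbd and Procr higher, in PyMT-M than in PyMT-N. Tfpi was close between them and F3 rested on few UMIs. F8 was higher in PyMT-M as well, but 1 cell held 10 of its 29 UMIs there. With cells meeting both endothelial rules kept in, the log2 ratio of F8 was 0.57 (-0.003 to 1.12), an interval that spanned 0. Vwf (ENSMUSG00000001930), the platelet-tethering ligand, stood at 220 CPM in PyMT-M (204 to 237) and 604 CPM in PyMT-N (592 to 617). This was 2.74-fold lower in PyMT-M, with a log2 ratio of -1.46 (-1.57 to -1.35). At least 2-fold higher levels in PyMT-M were found for 4 of the 8 members (F8, Thbd, Procr and F3), where 5.29% of 13188 genes with at least 20 UMIs were as much higher. In PyMT-N, 2 members (Vwf and Plat) were at least 2-fold higher, where 9.39% of genes were. F3, with 11 UMIs in all, did not reach the minimum of 20 UMIs and the other 7 members did. The members were chosen with these ratios known, so nothing is read from the counts.

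**Figure D1:**
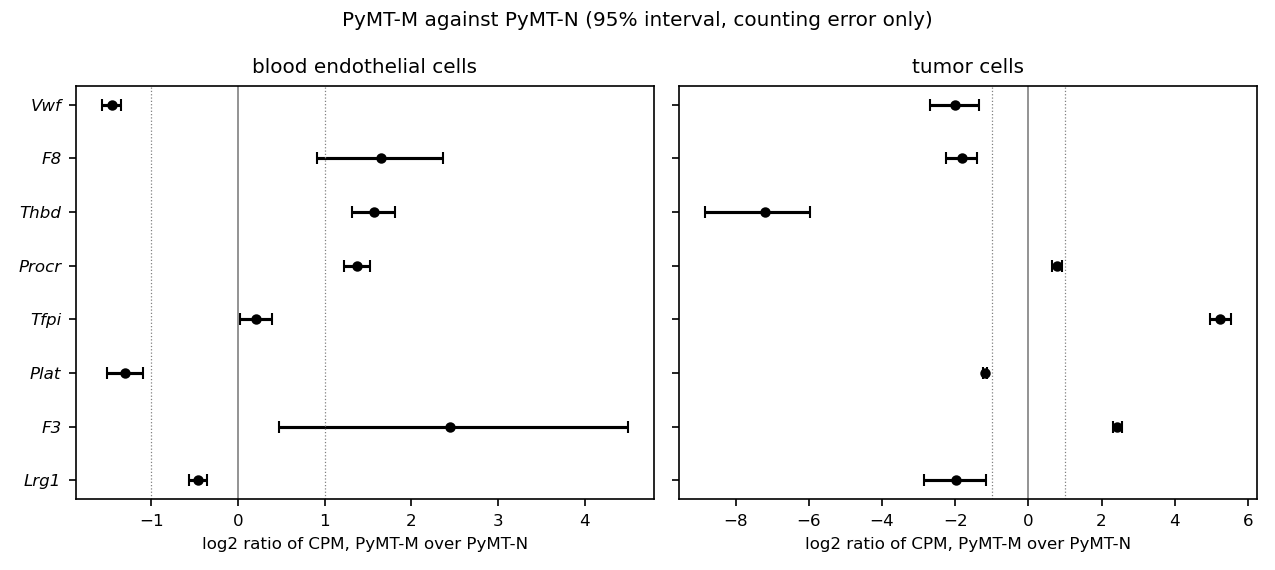
Log2 ratio of CPM, PyMT-M over PyMT-N, for each gene in blood endothelial cells (left) and tumor cells (right). Points are ratios of summed UMIs, bars are 95% intervals of counting error with 1 library per condition, and dotted lines mark 2-fold. In blood endothelial cells Vwf (-1.46) and Plat (-1.30) lie left of -1, and in tumor cells Thbd (-7.20) and Tfpi (5.24) lie farthest from 0.

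The blood endothelial difference in Vwf was also one of cells detected. After each cell was thinned to 3000 UMIs, 36.3% of 482 PyMT-M cells (32.0 to 40.8) and 72.4% of 1062 PyMT-N cells (69.6 to 75.1) had a Vwf UMI, against 46.3% and 89.6% before thinning. The same thinning left a Vwf UMI in 0.0409% of PyMT-M and 0.212% of PyMT-N tumor cells, which should lack the gene, at median depths of 23724.5 and 20770 UMIs before thinning. Before thinning, 0.532% and 1.91% of these tumor cells had a Vwf UMI. The endothelial shares were far above the tumor-cell shares. Tumor cells were picked for having no Pecam1 or Flt1 UMI and were deeper than endothelial cells. Their shares therefore cannot size free RNA in endothelial cells, which was not tested. In a separate draw to the same depth, 64.7% of PyMT-M and 29.8% of PyMT-N cells had no Vwf UMI, 11.2% and 31.0% had 3 to 9, and 0 of 482 and 11 of 1062 had 10 or more. The 0 of 482 allows a share of up to 0.762% (Clopper-Pearson).

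**Figure D2:**
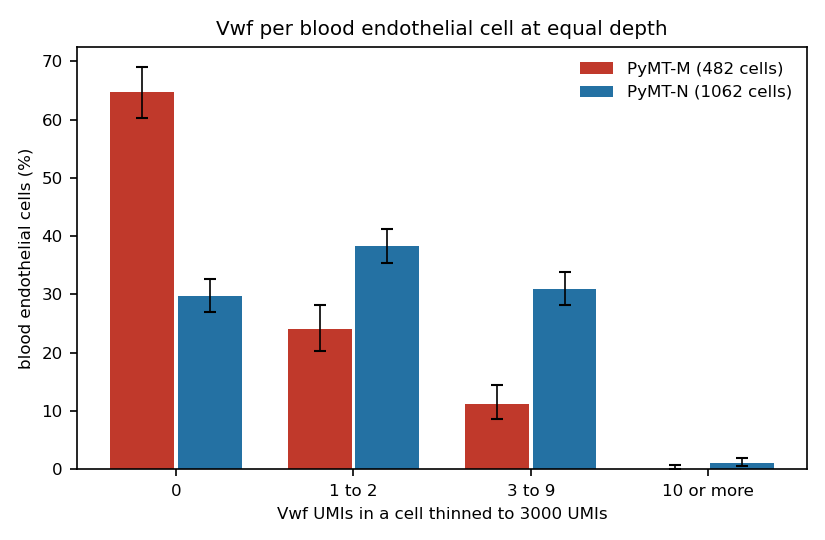
Share of blood endothelial cells (percent) by number of Vwf UMIs after thinning each cell to 3000 UMIs, for 482 PyMT-M and 1062 PyMT-N cells. Bars are shares and whiskers their exact 95% binomial intervals, and the class with 0 UMIs holds 64.7% of PyMT-M and 29.8% of PyMT-N cells.

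Of the 8 genes, Vwf had the largest share of its UMIs in blood endothelium in both libraries. Blood endothelial cells held 80.7% of all Vwf UMIs in kept PyMT-M cells and 87.3% in PyMT-N. The lead in PyMT-M was narrow, as the shares of Thbd (79.2%) and Lrg1 (79.0%) were close to it. In PyMT-N the next largest share was 68.8% (Tfpi). Lymphatic cells had 0 Vwf UMIs in PyMT-M, at least 6.53-fold lower than blood endothelium by a floor of 3 counts, and 6 UMIs (2.12 CPM) in PyMT-N, 285-fold lower. Fibroblasts had 1 and 9 Vwf UMIs, or 3.12 CPM (0.0791 to 17.4) and 6.67 CPM (3.05 to 12.7). Tumor cells had 0.232 and 0.929 CPM. In PyMT-N the order was blood endothelial, fibroblast, lymphatic and tumor cells. The interval of lymphatic cells (0.777 to 4.61 CPM) overlapped both that of fibroblasts and that of tumor cells (0.724 to 1.17 CPM). In PyMT-M the lymphatic limit of 33.7 CPM left its place in the order unknown below blood endothelium.

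**Figure D3:**
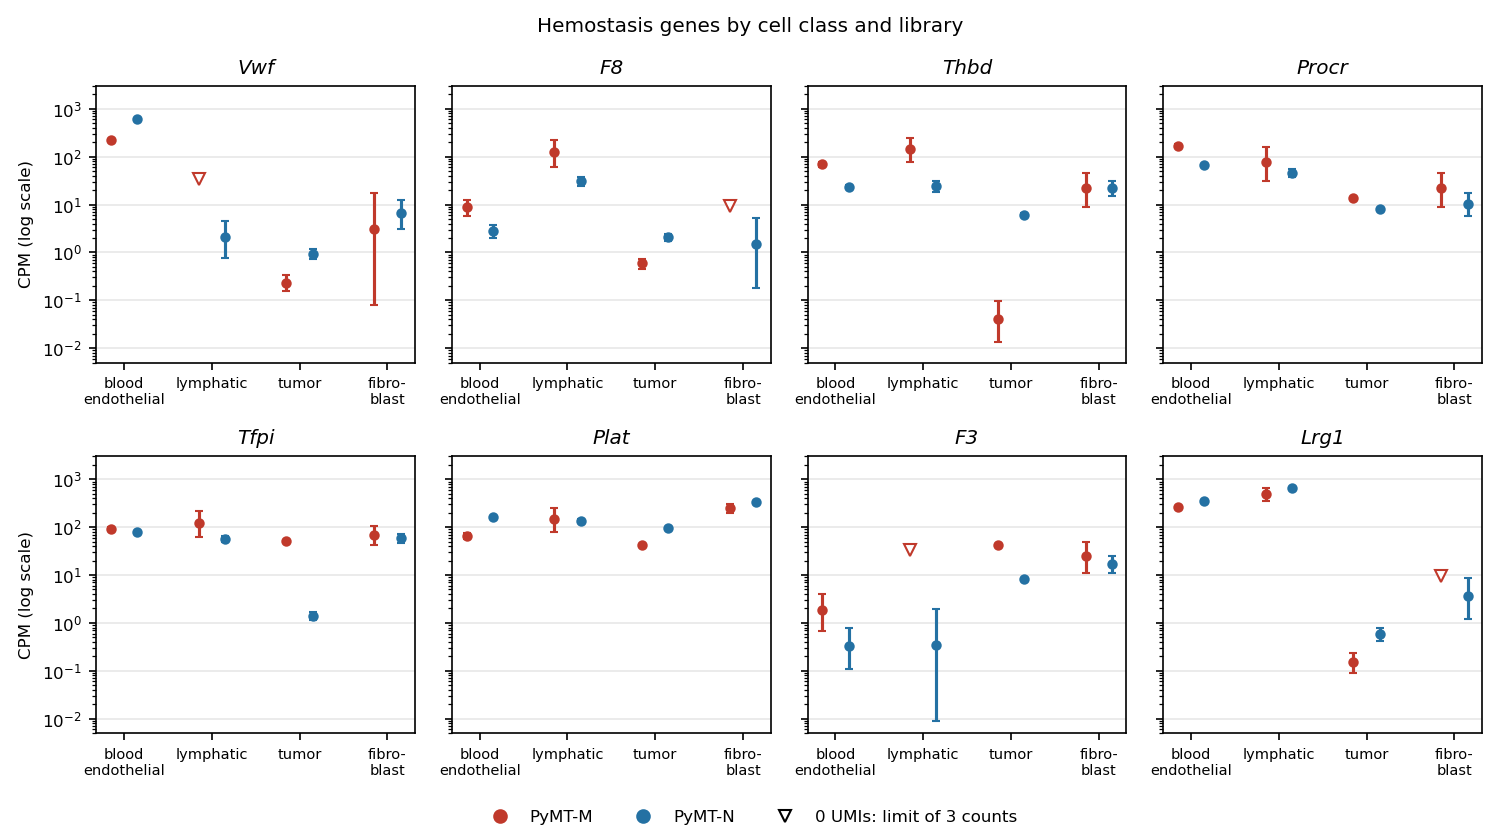
CPM (log scale) of each of the 8 genes in blood endothelial, lymphatic, tumor and fibroblast cells of PyMT-M (red) and PyMT-N (blue). Points are summed counts of a class in 1 library with exact Poisson intervals, and open triangles mark classes with 0 UMIs at the limit that 3 counts allow. Vwf is highest in blood endothelial cells (220 and 604 CPM), and F3 is higher in tumor cells (43.4 and 8.08 CPM) than in blood endothelial cells.

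Vwf was described further by vessel state, where a state was called from at least 3 UMIs of its markers (5 for cycling) and a cell could carry several. Venous cells (Ackr1, Selp and Sele) numbered 55 in PyMT-M and 78 in PyMT-N. Cells at the minimum or 1 UMI under it numbered 36 and 28, so the venous state is a range and not a separate type. The arterial state used below was no sharper, with 81 PyMT-M and 361 PyMT-N cells beside 65 and 288 at the minimum or 1 UMI under it. Arterial cells were shallower than the rest in PyMT-M, with medians of 4677 against 5279 UMIs. They were deeper in PyMT-N, with 14232 against 11768.5 UMIs, and the part of depth in arterial contrasts was not tested. The PyMT-M venous cells had 556 CPM of Vwf against 186 CPM in the rest, a log2 ratio of 1.58 (1.33 to 1.83). PyMT-N venous cells had 689 against 598 CPM, a log2 ratio of 0.20 (0.09 to 0.32). Between libraries, Vwf was therefore closer within venous cells (log2 ratio -0.31, -0.56 to -0.06) than outside them (-1.69, -1.81 to -1.56). The difference of these ratios was not tested. Each state kept its minimum of UMIs across libraries, although blood endothelial cells had median depths of 5202 (PyMT-M) and 12661 UMIs (PyMT-N). The same minimum can therefore pick out different cells in each library. For every gene, the part of this depth difference in ratios between libraries, within or outside a state, was not tested.

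Tip and capillary markers went with opposite Vwf levels in the libraries. The tip state took in 335 PyMT-M cells (56.9% of the class) and 926 PyMT-N cells (86.6%). The capillary state took in 427 (72.5%) and 868 (81.2%), so neither marks a small subset. Cells with tip markers (Apln, Esm1, Trp53i11 and Cxcr4) had 174 CPM of Vwf against 310 in other PyMT-M cells, and 622 against 463 in PyMT-N. Those with capillary markers (Gpihbp1, Cd300lg and Car4) had 178 against 374 CPM in PyMT-M, and 646 against 397 in PyMT-N. Among cells without capillary markers the libraries were nearly level, with a log2 ratio of Vwf of -0.09 (-0.29 to 0.11). The depth difference between libraries limits this ratio as it does the venous ones. Cells with capillary markers were deeper than the rest, with medians of 5629 (PyMT-M) and 13021 UMIs (PyMT-N) against 3618 and 10040. Tip cells were deeper too, with 6064 and 13008 UMIs against 3720.5 and 9523. Venous cells were not, with 5197 and 11147 UMIs against 5206.5 and 12827. The part of depth in these contrasts was not tested. Cycling cells (Top2a, Mki67, Birc5, Cenpf and Ube2c) had low Vwf in both, with 69.2 against 258 CPM in PyMT-M and 227 against 665 CPM in PyMT-N. They were deeper than the rest, with medians of 8294.5 (PyMT-M) and 17401 UMIs (PyMT-N) against 4628 and 12118. The part of depth was not tested here either.

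**Figure D4:**
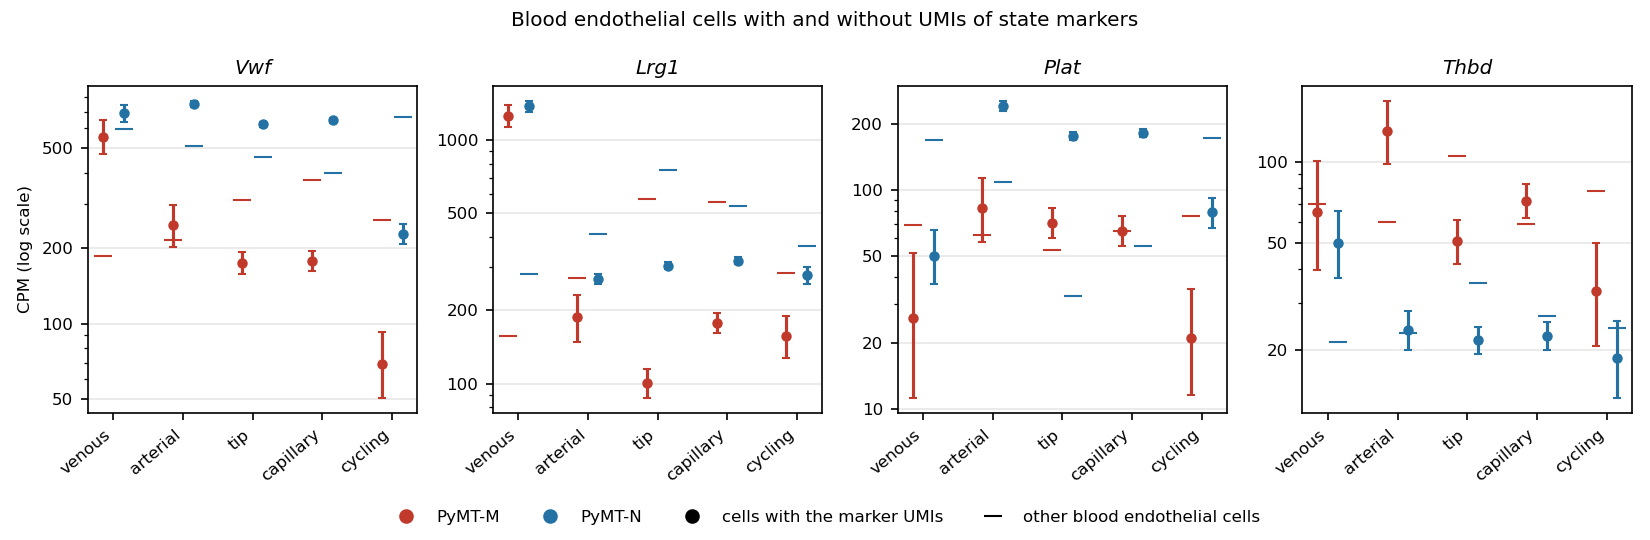
CPM (log scale) of Vwf, Lrg1, Plat and Thbd in blood endothelial cells with the markers of a state (points, exact Poisson intervals) and in all other blood endothelial cells of the same library (dashes). Vwf is lower in cycling cells than in the rest in both libraries, and Lrg1 is higher in venous cells, at 1255 and 1372 CPM against 157 and 283 CPM.

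Coagulation factors differed by cell class. F8 (ENSMUSG00000031196), the cofactor carried by von Willebrand factor, was highest in lymphatic cells. There it stood at 124 CPM in PyMT-M (61.7 to 221, 11 UMIs) and 30.3 CPM in PyMT-N (24.3 to 37.5, 86 UMIs), against 8.79 CPM (29 UMIs) and 2.81 CPM (42 UMIs) in blood endothelium. The lymphatic level was 14.1-fold higher in PyMT-M and 10.8-fold higher in PyMT-N, with log2 ratios of 3.81 (2.66 to 4.86) and 3.43 (2.88 to 4.001). F8 was carried by few cells, in that 3 of 20 PyMT-M and 35 of 207 PyMT-N lymphatic cells had a UMI. A single cell held 4 of the 11 UMIs in PyMT-M and 26 of the 86 in PyMT-N. The intervals do not cover this unevenness between cells.

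In PyMT-N, F8 was the only member at least 2-fold higher in lymphatic cells, as were 10.9% of 13382 genes, and Vwf the only one at least 2-fold higher in blood endothelium, as were 12.2%. In PyMT-M lymphatic cells, Thbd (log2 ratio 1.08, 0.15 to 1.88) and Plat (1.17, 0.24 to 1.98) were also past 2-fold, on 13 UMIs each. There 3 members (Vwf, Procr and F3) were at least 2-fold lower, Vwf and F3 with 0 lymphatic UMIs. The share over all genes was not computed for PyMT-M. The log2 ratio of F8 between libraries in blood endothelium was 1.65 (0.91 to 2.36), and 1 PyMT-M cell held 10 of the 29 UMIs. The 3 PyMT-M blood endothelial cells with a Prox1, Mmrn1 or Reln UMI held 10 F8 UMIs in all. With cells carrying 2 or more UMIs of other cell types left out the log2 ratio was 0.97. With cells meeting both endothelial rules kept in blood endothelium it was 0.57 (-0.003 to 1.12), an interval that spanned 0. Both ratios were under 2-fold.

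F8 in tumor cells was low, at 0.588 CPM (PyMT-M) and 2.07 CPM (PyMT-N). Its UMIs numbered 2.54 for each Vwf UMI in PyMT-M and 2.23 in PyMT-N tumor cells, against 0.0399 and 0.00465 in blood endothelial cells of the same libraries. Whether free RNA adds to tumor-cell F8 was not tested. The PyMT-N tumor and blood endothelial levels of F8 were not separated by counting error, with a log2 ratio of 0.44 (-0.09 to 0.94).

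F3 (ENSMUSG00000028128), tissue factor, lay in tumor cells and fibroblasts. Tumor cells stood at 43.4 CPM in PyMT-M (42.2 to 44.6) and 8.08 CPM in PyMT-N (7.45 to 8.75), a log2 ratio of 2.42 (2.30 to 2.55), and held 89.3% and 79.5% of the F3 UMIs. Fibroblasts stood at 24.9998 CPM (10.8 to 49.3) and 17.0 CPM (10.8 to 25.6). Blood endothelial cells had 6 (PyMT-M) and 5 UMIs (PyMT-N), or 1.82 and 0.334 CPM, with a log2 ratio between libraries of 2.44 (0.47 to 4.49) that runs the same way as the ratio in tumor cells. The endothelial level was 23.8-fold below tumor cells in PyMT-M and 24.2-fold below in PyMT-N. Whether these few UMIs came from free tumor RNA was not tested.

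The anticoagulant receptors were higher in PyMT-M endothelium. Thbd (ENSMUSG00000074743), thrombomodulin, which turns thrombin toward the activation of protein C, stood at 69.1 CPM in PyMT-M (60.4 to 78.7) and 23.3 CPM in PyMT-N (21.0 to 25.9). Its log2 ratio was 1.57 (1.32 to 1.81), and a UMI was present in 17.0% and 7.72% of thinned cells. Procr (ENSMUSG00000027611), the receptor that presents protein C to that complex, stood at 170 CPM (157 to 185) and 65.9 CPM (61.8 to 70.1), a log2 ratio of 1.37 (1.22 to 1.52), with 35.7% and 18.5% of thinned cells. Thbd and Procr thus stood 2.96-fold and 2.59-fold higher, and kept at least 2-fold in each of 14 alternatives tried. In lymphatic cells the Thbd level was 146 CPM in PyMT-M (13 UMIs) and 24.0 CPM in PyMT-N (68 UMIs), the latter within counting error of blood endothelium. Among arterial cells (Gja4, Gja5, Hey1, Sox17, Bmx and Sema3g) the log2 ratio of Thbd between libraries was 2.45 (1.98 to 2.91), with 130 against 59.8 CPM in and outside that state in PyMT-M, and 23.8 against 23.1 CPM in PyMT-N. It was 1.22 in tip and 1.67 in capillary cells. In venous (0.38, -0.44 to 1.16) and cycling cells (0.82, -0.004 to 1.61) the interval spanned 0. Procr was under 2-fold in venous (0.87) and arterial cells (0.88), and past it in tip (1.41), capillary (1.24) and cycling cells (1.28). These ratios by state carry the limit of unequal depth between libraries, whose part was not tested.

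Tfpi (ENSMUSG00000027082), which blocks tissue factor with factor VIIa and factor Xa, was close between libraries in blood endothelium and far apart in tumor cells. The endothelial levels were 91.9 CPM in PyMT-M (81.8 to 103) and 79.3 CPM in PyMT-N (74.9 to 84.0), a log2 ratio of 0.21 (0.02 to 0.39). The interval spanned 0 in 4 alternatives, where the ratio ran from 0.06 to 0.16. Thinned cells with a UMI made up 23.2% and 22.4%, with intervals of 19.5 to 27.3 and 19.9 to 25.04. Tumor cells stood at 52.1 CPM in PyMT-M (50.8 to 53.4) and 1.38 CPM in PyMT-N (1.13 to 1.67), 37.8-fold higher in PyMT-M. Tumor cells held 84.6% (PyMT-M) and 6.03% (PyMT-N) of the Tfpi UMIs, and blood endothelial cells 4.08% and 68.8%.

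Plat (ENSMUSG00000031538), tissue plasminogen activator, stood at 64.9 CPM in PyMT-M (56.5 to 74.2) and 160 CPM in PyMT-N (154 to 167) blood endothelium, a log2 ratio of -1.30 (-1.51 to -1.10). The gene was highest in fibroblasts, at 250 CPM (198 to 311) and 329 CPM (299 to 361). It was present in lymphatic cells at 146 CPM (77.8 to 250) and 134 CPM (121 to 148), and in tumor cells at 43.4 and 98.2 CPM. Tumor cells of PyMT-M were thus lower as well, with a log2 ratio of -1.18 (-1.23 to -1.13). Within PyMT-N blood endothelium Plat stood at 242 CPM in arterial cells against 108 in the rest, and at 177 CPM in tip cells against 32.7. In PyMT-M these contrasts were 82.1 against 62.2 CPM (log2 interval -0.16 to 0.92) and 70.8 against 53.2 CPM (-0.03 to 0.87), both spanning 0. Venous cells had low Plat in both libraries, at 26.0 against 68.9 CPM in PyMT-M and 49.8 against 168 CPM in PyMT-N. Outside the tip state Plat was higher in PyMT-M, with a log2 ratio of 0.70 (0.15 to 1.26), while within it the log2 ratio was -1.32 (-1.56 to -1.08). The tip state held 86.6% of PyMT-N blood endothelial cells, so the cells outside it were a small remainder there. Unequal depth between libraries also bears on which cells met the tip minimum, and its part was not tested.

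Lrg1 (ENSMUSG00000037095), a secreted glycoprotein known to modulate TGF-beta signaling in vessels, stood at 260 CPM in PyMT-M (242 to 277) and 356 CPM in PyMT-N (347 to 366) blood endothelium, a log2 ratio of -0.46 (-0.56 to -0.35). Lymphatic cells were higher, at 494 CPM (359 to 664) and 666 CPM (636 to 697), with log2 ratios over blood endothelium of 0.93 (0.46 to 1.37) and 0.90 (0.83 to 0.98). Venous cells stood at 1255 CPM in PyMT-M and 1372 CPM in PyMT-N, against 157 and 283 CPM in the rest, 7.99-fold and 4.85-fold higher, with log2 intervals of 2.80 to 3.20 and 2.19 to 2.37. Within venous cells the libraries were close, with a log2 ratio of -0.13 (-0.29 to 0.04), and outside them it was -0.85 (-0.99 to -0.71). As for Vwf, the part of unequal depth between libraries in these ratios was not tested. Tumor cells stood at 0.149 and 0.584 CPM, and fibroblasts at 0 UMIs and 3.71 CPM.

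Cells with at least 3 Vwf UMIs at equal depth were set beside cells with 0 in the same library. Lrg1 was higher in the former, at 512 against 196 CPM in PyMT-M and 491 against 344 CPM in PyMT-N. Venous genes followed the same direction, as Selp stood at 222 against 85.5 CPM in PyMT-M and 83.3 against 32.7 in PyMT-N, and Ackr1 was 4.62-fold and 3.16-fold higher. General endothelial markers were higher as well, Pecam1 1.32-fold and 1.28-fold and Cdh5 1.25-fold and 1.53-fold. In PyMT-N the difference in Lrg1 (1.43-fold) was thus no larger than that in Cdh5. Plat was higher with Vwf in PyMT-N, at 198 against 102 CPM, while PyMT-M gave 80.2 against 64.1 CPM with a log2 interval from -0.67 to 1.21. The log2 ratios of Thbd, Procr and Tfpi had intervals that spanned 0 in both libraries. These cells came from 1 pool per library, so the contrasts describe that pool.

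Profiles like that of Vwf were sought over the 4 classes in 2 libraries (8 points of log2(CPM + 5)). The 8546 genes compared had at least 200 UMIs in blood endothelial cells, so high levels in that class were partly set by this choice. The closest profiles were those of Prnd (Pearson r 0.996), Tmem255a (0.994), Dnah2os (0.990), Gkn1 (0.989) and Tacr1 (0.989). All 8 points come from the 2 libraries, and the fit turns largely on high values in blood endothelium of both. Prnd stood at 151 CPM in PyMT-M and 343 CPM in PyMT-N blood endothelial cells and at no more than 5.93 CPM in any other class. Tacr1 stood at 69.7 and 134 CPM.

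Other genes of the pathway were taken from 7 lists, read in blood endothelial cells at a minimum of 20 UMIs. Of 15 platelet adhesion and Weibel-Palade body genes 14 reached it, 5 at least 2-fold higher in PyMT-M and 2 on the PyMT-N side. The list's median log2 ratio was 0.14. For these lists the same shares over all genes were 5.29% and 9.39%, with a median of -0.01. Edn1 (2.02), a vasoconstrictor peptide precursor, Thbs1 (1.83), thrombospondin 1, Selp (1.47), the P-selectin stored beside von Willebrand factor, and Angpt2 (1.32), an inhibitor of Tie2 stored in the same granule, were higher in PyMT-M. Sytl4 (1.03, 9 and 20 UMIs), named after its value was seen, was the fifth. On the PyMT-N side stood Vwf and Unc13d (-1.57, on 2 and 27 UMIs, named after its value was seen). The other granule genes Cd63 (-0.03) and Igfbp7 (-0.16), named after their values were seen, were close between libraries.

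Of 15 anticoagulant and antiplatelet genes 12 reached the minimum, 3 at least 2-fold higher in PyMT-M (Thbd, Procr and Hs3st1, a heparan sulfate sulfotransferase, at 1.31) and 1 in PyMT-N (Tfpi2, a protease inhibitor, at -1.64), with a median of 0.20. Pros1, the cofactor protein S, was at -0.50. Of 14 coagulation factor genes 3 reached it, with F8 higher in PyMT-M. F13a1, which crosslinks fibrin, had 0 UMIs (PyMT-M) and 55 UMIs (PyMT-N), at least 4.05-fold lower in PyMT-M by the floor of 3 counts. Of those 55 UMIs, 31 lay in the 57 cells with 2 or more leukocyte marker UMIs.

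Fibrinolysis genes gave 5 of 9, with none at least 2-fold higher in PyMT-M, 1 (Plat) in PyMT-N and a median of 0.29. S100a10, a partner of annexin A2 in plasmin formation, was at 0.42 (0.36 to 0.49). The thrombin receptor list holds 4 protease-activated receptor genes, of which F2rl1 does not encode a thrombin receptor. All 4 reached the minimum, with a median of 1.39, and 2 were at least 2-fold higher in PyMT-M. With a minimum of 50 UMIs 2 genes remained, 0 of them past 2-fold, and the median turned to -0.46. The 2 genes past 2-fold at the lower minimum were F2rl1 (3.92, on 20 and 6 UMIs) and F2rl2 (2.99, on 14 and 8 UMIs). Both were named after their values were seen. The 2 that remained at 50 UMIs were F2r, the main thrombin receptor gene of endothelium, at -0.71 and F2rl3 at -0.21. None of 8 transcription factor genes tied to these genes passed 2-fold, with Klf4 at 0.58, Klf2 at 0.32, Ets1 at -0.62, Sox18 at -0.72 and a median of -0.14. None of the 3 of 6 clearance receptor genes that reached the minimum passed it either, with a median of -0.52. All members but Lrg1 are in these lists, so their counts are not separate evidence.

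**Figure D5:**
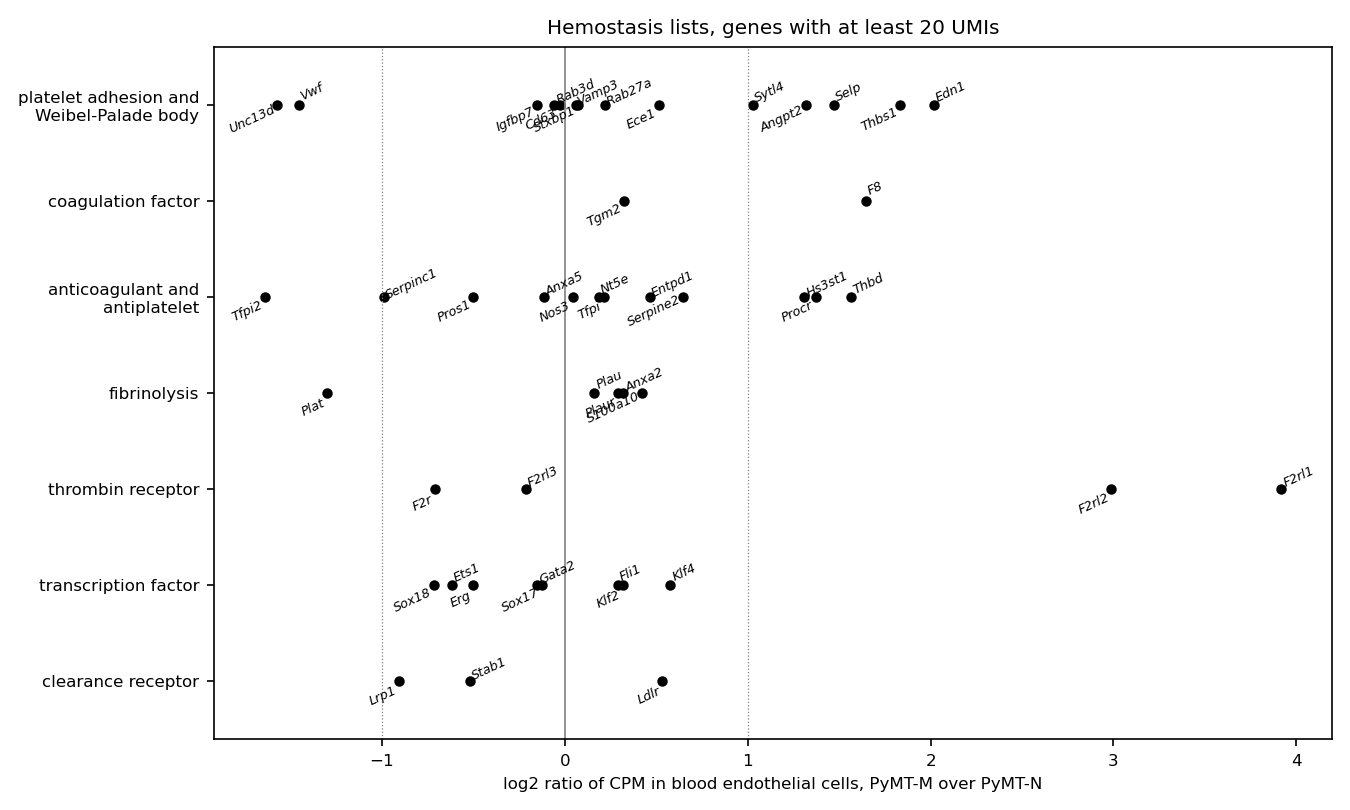
Log2 ratio of CPM in blood endothelial cells, PyMT-M over PyMT-N, for the genes of the 7 lists with at least 20 UMIs, 1 point per gene, with dotted lines at 2-fold. F13a1, with 0 UMIs in PyMT-M, is not drawn, F2rl1 (3.92) and F2rl2 (2.99) are farthest right, and Tfpi2 (-1.64) is farthest left.

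In tumor cells the same genes split differently. Of the 8 members 2 (Tfpi and F3) were at least 2-fold higher in PyMT-M, where 21.5% of 16945 genes were, and 5 (Vwf, F8, Thbd, Plat and Lrg1) in PyMT-N, where 27.7% were. Thbd had 5 UMIs (0.0414 CPM) in PyMT-M and 459 (6.09 CPM) in PyMT-N tumor cells, a log2 ratio of -7.20 (-8.83 to -5.97) that runs against its ratio in endothelium. Procr had 1653 and 603 UMIs, a log2 ratio of 0.78 (0.64 to 0.91). Blood endothelial cells were at least 2-fold above tumor cells for 5 members in PyMT-M (Vwf, F8, Thbd, Procr and Lrg1), where 25.9% of 15229 genes were. Tumor cells were as much above for F3 alone, where 22.6% of genes were. PyMT-N gave 5 members (Vwf, Thbd, Procr, Tfpi and Lrg1) against 23.1% of 15984 genes, and F3 alone on the tumor side against 17.5%.

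Of the list genes in tumor cells, 15 of 15 anticoagulant genes had at least 20 UMIs, with 4 at least 2-fold higher in PyMT-M and 7 in PyMT-N, where the shares over all genes were 21.5% and 27.7%. Serpine2, an inhibitor of thrombin, stood at 0.0414 against 39.8 CPM, and Tfpi2 at 0.0332 and 17.4 CPM. Tfpi and Serpind1, heparin cofactor II, were on the PyMT-M side, the latter at 1.82 against 0.119 CPM. Of 9 fibrinolysis genes 6 reached the minimum, with Plaur, the urokinase receptor, at 93.8 against 27.9 CPM and Plau, urokinase, at 3.17 against 59.1 CPM. F13a1 stood at 0.0995 and 84.6 CPM in tumor cells.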

How the data were processed

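The authors deposited whole-number UMI counts per gene and cell barcode, not normalized, 1 table per library. The submitters' processing notes name Cell Ranger 8.0.0 and mm39, with the annotation not given in the sources used here. Depth was 141067264 UMIs over 7821 barcodes (PyMT-M) and 116150425 over 6974 (PyMT-N).

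Barcodes with at least 200 genes and at most 10% mitochondrial UMIs were kept. The study's further limit, a gene number within 2-fold of the median, was an alternative. Cells meeting the lymphatic rule went to that class and cells meeting any other pair of rules were left out of the classes. Doublets were neither called nor removed. UMIs were summed per class and library and given as CPM with exact Poisson intervals. Ratios have exact conditional binomial intervals and shares Clopper-Pearson intervals, at 95%, and classes with 0 UMIs a limit of 3 counts. Shares were compared after thinning each cell to 3000 UMIs, leaving out shallower cells (107 PyMT-M and 7 PyMT-N blood endothelial cells). Counts from 3 pooled tumors per model and 1 library per condition give no replicate error. Intervals were tested on simulated data, drawn as independent counts as the intervals assume. That test therefore does not cover UMIs that cluster in single cells.

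The members and lists were chosen with earlier results of these data known. A further list gene is not reported here. Genes named are the 8 members, at most 2 highest and 2 lowest of each list with at least 50 UMIs, the 5 most like Vwf, markers, and genes set beside Vwf. Exceptions, named after their values were seen, are Sytl4, Unc13d, F2rl1, F2rl2, Cd63 and Igfbp7. List genes in tumor cells and the F8, F13a1 and Vwf splits by marker UMIs were added after the data were seen, with tumor-cell examples named by the same rule. Promoter sequences came from RefSeq (GRCm38.p6), where 5 of 8 members matched, and no coordinate was carried between builds. Reads shared by near-identical genes may be lost in counting. Computation used scipy 1.17.1 and numpy 2.4.6 in Python 3.11.15, with tables in pandas 2.3.3 and plots in matplotlib 3.10.9. The human, proteomic and imaging data are not analysed here.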

Additional observations from a re-analysis of the deposited data

Results flagged for a closer look

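Thbd and F8 had ratios between PyMT-M and PyMT-N that ran in opposite directions in endothelial and tumor cells, with 1 library per condition, and the difference was not tested. The log2 ratio of Thbd, PyMT-M over PyMT-N, was 1.57 in blood endothelial cells, 2.61 in lymphatic cells and -7.20 in tumor cells. For F8 it was 1.65 in blood endothelial cells, 2.03 in lymphatic cells and -1.81 in tumor cells. The lymphatic values rest on 13 (Thbd) and 11 (F8) UMIs in PyMT-M. The F8 ratio in blood endothelium was the less firm. With cells meeting both endothelial rules kept in, it was 0.57 (-0.003 to 1.12), an interval that spanned 0.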

How the results depend on the processing

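Of 112 alternative ratios of the 8 members in blood endothelial cells, 100 stayed within the counting interval of the reported value, 12 lay outside it and none changed sign. Vwf (-1.46) was -1.27 with cells meeting both endothelial rules kept in, -1.96 with the gene number within 2-fold of the median, -1.69 without venous cells, -1.996 in cells with at least 5000 UMIs and -1.21 as the mean CPM per cell. F8 (1.65) was 0.57 with cells meeting both rules kept in and 0.97 without cells carrying UMIs of other cell types, so it passed 2-fold in 12 of 14 alternatives. Plat (-1.30) was -1.55 with the limit on gene number and -1.56 in cells with at least 5000 UMIs. Lrg1 (-0.46) was -0.63, -0.96, -0.85 and -0.81 with overlaps kept, the gene number limit, no venous cells and at least 5000 UMIs. Thbd, Procr, Tfpi and F3 stayed within their intervals throughout. Counts of list genes past 2-fold moved with the minimum of UMIs. At 50 UMIs 1 Weibel-Palade gene was higher in PyMT-N and 0 genes of the thrombin receptor list in PyMT-M. At 1 UMI 5 coagulation genes were higher in PyMT-M and 2 in PyMT-N, 2 fibrinolysis genes in PyMT-N and 2 clearance receptor genes in PyMT-M. The cause was not tested. The limits of 5000 UMIs on cells and the removal of Ptprc-positive cells were chosen after seeing the data. No paired analysis was possible because each condition has 1 library and the ratios come from no test, and no replicate could be left out. Depth limits F3 and F8 in endothelium and every PyMT-M lymphatic value, which come from 20 cells.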
